A study of Mus musculus with 6 samples.

Results

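Interferon-stimulated genes are switched on when type I or type III interferons bind their receptors. The list examined here held 37 mouse genes chosen by symbol, of which 36 were found among the 31053 genes of each count table. Mx2 was not analysed here. The 36 genes, called members below, comprised 3 transcription factors of the pathway (Irf7, Irf9, Stat2), 4 nucleic acid sensors (Ifih1, Ddx58, Ddx60, Zbp1), 5 oligoadenylate synthetase family genes (Oas1a, Oas2, Oas3, Oasl1, Oasl2), 4 Ifit genes (Ifit1, Ifit2, Ifit3, Ifit3b), Isg15 and its deconjugase Usp18, the antiviral effectors Mx1, Rsad2, Cmpk2 and Bst2, 6 interferon-induced GTPases (Iigp1, Igtp, Irgm1, Gbp2, Gbp3, Gbp7) and 8 others (Ifi44, Ifi27l2a, Xaf1, Rtp4, Apol9a, Parp14, Trim30a, Ifi35).

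The data were single-cell RNA-seq libraries from tissue that had been minced and digested with type I collagenase. Kidneys came from 12-week-old male C57BL/6 mice. Mammary tumors came from 10-week-old female MMTV-PyMT mice, in which a mammary tumor virus promoter drives the polyoma middle T antigen in mammary epithelium. Each tissue gave 1 control library after 60 min of conventional digestion and 2 libraries from a microfluidic platform, one of cells eluted after a 15 min interval and one of cells eluted afterwards, up to 60 min. All were sorted for viable cells, and per the study's reporting statement sequencing had 1 replicate, with the control and platform conditions of a replicate sharing tissue of 1 mouse. With 1 library per condition there was no test between conditions, so every interval below is a 95% interval that covers counting error only. Where 3 values follow each other they belong to the control, the 15 min interval and the 60 min interval, in that order.

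Interferon responses work as a relay. A cell that senses foreign or misplaced nucleic acid secretes interferon-beta, encoded by Ifnb1, through IRF3 and NF-kB. Interferon-beta binds the receptor formed by the Ifnar1 and Ifnar2 products, the kinases JAK1 and TYK2 signal through STAT2, and STAT2 with IRF9 acts at the interferon-stimulated response element. Some members, among them the Ifit genes, Isg15 and Rsad2, can also be switched on directly by IRF3.

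The promoters of members on which the results turn, and of Ifnb1, are shown because some match the core of this element and others do not. Each run is the 250 bases before the RefSeq transcription start on build GRCm38.p6, on the gene's own strand. Capitals mark the core of the response element, which is GAAA, any 2 bases and GAAA again on either strand, and matches may overlap. In Ifnb1 they mark an NF-kB type core, which is GGGA, any 2 bases and TTCC on either strand.
Rsad2, chr12:26456453-26456702, minus strand: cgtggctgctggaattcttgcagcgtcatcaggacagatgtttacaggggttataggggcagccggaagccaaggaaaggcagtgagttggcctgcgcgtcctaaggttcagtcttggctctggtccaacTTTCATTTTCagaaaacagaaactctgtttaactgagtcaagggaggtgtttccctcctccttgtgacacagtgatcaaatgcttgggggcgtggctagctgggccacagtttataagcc
Ifit1, chr19:34640639-34640888, plus strand: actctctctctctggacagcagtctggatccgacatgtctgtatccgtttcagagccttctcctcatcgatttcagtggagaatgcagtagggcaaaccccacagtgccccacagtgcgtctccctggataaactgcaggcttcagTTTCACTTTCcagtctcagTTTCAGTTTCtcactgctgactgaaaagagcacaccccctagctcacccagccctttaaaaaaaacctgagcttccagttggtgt
Isg15, chr4:156200819-156201068, minus strand: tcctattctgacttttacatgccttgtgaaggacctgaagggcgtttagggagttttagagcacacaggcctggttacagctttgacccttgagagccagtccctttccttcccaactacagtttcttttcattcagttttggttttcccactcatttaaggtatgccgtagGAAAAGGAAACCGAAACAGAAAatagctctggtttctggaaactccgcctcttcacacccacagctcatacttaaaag
Bst2, chr8:71537473-71537722, minus strand: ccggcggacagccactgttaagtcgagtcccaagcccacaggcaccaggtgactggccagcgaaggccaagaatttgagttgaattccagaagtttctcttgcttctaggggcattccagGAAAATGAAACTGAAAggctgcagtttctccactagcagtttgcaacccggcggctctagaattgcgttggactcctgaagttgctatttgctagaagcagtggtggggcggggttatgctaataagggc
Oasl1, chr5:114922990-114923239, plus strand: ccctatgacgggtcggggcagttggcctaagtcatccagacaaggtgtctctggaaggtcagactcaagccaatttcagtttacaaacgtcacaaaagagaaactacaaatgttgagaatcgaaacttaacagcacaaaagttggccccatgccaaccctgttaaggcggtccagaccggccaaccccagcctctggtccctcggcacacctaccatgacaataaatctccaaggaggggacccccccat
Ifit2, chr19:34550444-34550693, plus strand: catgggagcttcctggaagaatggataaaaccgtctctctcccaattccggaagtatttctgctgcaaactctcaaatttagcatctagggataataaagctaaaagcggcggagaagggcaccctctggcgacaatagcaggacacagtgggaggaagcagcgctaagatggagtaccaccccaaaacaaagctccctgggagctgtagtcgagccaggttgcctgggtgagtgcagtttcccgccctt
Ifnb1, chr4:88522795-88523044, minus strand: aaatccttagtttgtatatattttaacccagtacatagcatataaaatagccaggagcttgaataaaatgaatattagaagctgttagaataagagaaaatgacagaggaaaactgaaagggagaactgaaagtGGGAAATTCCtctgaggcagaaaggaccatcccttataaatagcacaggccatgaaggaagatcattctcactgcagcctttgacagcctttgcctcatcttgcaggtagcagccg
Rsad2 held 1 match to the response element core, Ifit1 and Bst2 held 2 each, and Isg15 held 3 that overlap. Oasl1 held none, and neither did Ifit2, in the window shown or in its second RefSeq window. The Ifnb1 window held none either and had 1 match to the NF-kB type core. The Ifit2 window shown also had 1 match to the NF-kB type core, left in lower case. Among all genes of the RefSeq promoter table the share with that core was 1.36%. Of the 37 genes, 28 had an entry in the RefSeq promoter table, and 17 of these (60.7%) held the response element core in at least 1 window. Among all 27025 genes of that table the share was 3.46%. A match is a description of letters and not of a bound site. The search used a single pattern in 250 bases, so a window without a match may still hold the element.

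Cells were kept within the study's limits on detected genes and mitochondrial UMIs, a UMI being the tag of 1 captured RNA molecule. This left 5886, 8390 and 9936 kidney cells and 5736, 5802 and 6024 tumor cells, with 33644880 to 61434200 UMIs a library. The median kidney cell of the 15 min library had 20.4% mitochondrial UMIs, beside 7.38% in the control and 8.59% at 60 min. Between 1.48% and 2.04% of kidney barcodes and at most 0.503% of tumor barcodes also occurred in another library of the tissue. Without the cells of shared barcodes the kidney ratios given next were 0.289 and 2.21. Levels are given as CPM, the UMIs of a gene per 1000000 UMIs of the cells that were summed. These are 3′ tags and do not scale with gene length.

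In the whole kidney libraries the members together stood at 1319, 381 and 2923 CPM. The 15 min level was 3.46-fold below the control and the 60 min level 2.22-fold above it. At 15 min 32 of 36 members were at least 2-fold lower, as were 30.7% of all genes with at least 30 UMIs, and 0 were 2-fold higher (2.22% of all genes). At 60 min 16 were 2-fold higher (9.91% of all genes) and 0 were 2-fold lower (1.17%). The median member ratio was 0.276 at 15 min and 1.97 at 60 min, beside 0.731 and 1.17 over all genes.

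The tumor libraries differed less. Their members stood at 1369, 1546 and 1553 CPM. Ifit2 alone was 2-fold higher at 15 min (3.67% of all genes), and 0 members were at 60 min (8.94%). None was 2-fold lower at 15 min (4%) or at 60 min (2.76%).

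Rsad2, which encodes the antiviral radical SAM enzyme viperin, had the most UMIs of any member in the kidney, at 189, 79.3 and 622 CPM. Bst2, which tethers budding virus to the cell membrane, stood at 175, 49.0 and 369 CPM. Isg15, a ubiquitin-like modifier, stood at 78.8, 11.2 and 256 CPM. All 3 were lowest at 15 min and highest at 60 min.

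The largest ratios of the 60 min kidney library to the control were those of Ifit2 (8.65), Oasl1 (8.56), Ifit1 (5.03), Ifih1 (4.40) and Rsad2 (3.28). The Ifit proteins bind foreign RNA and hinder its translation, Oasl1 is an oligoadenylate synthetase-like protein, and Ifih1 encodes the double-stranded RNA sensor MDA5. The smallest were those of Ifi27l2a (0.964), Oas3 (1.03), Irgm1 (1.09), Zbp1 (1.23) and Iigp1 (1.23). At 15 min the smallest ratios were those of Mx1 (0.0670), Oas2 (0.101), Ifi27l2a (0.140), Isg15 (0.142) and Ddx60 (0.185). The largest were those of Igtp (0.647), Irgm1 (0.594), Cmpk2 (0.534), Ddx58 (0.523) and Ifi35 (0.451), so that every member was below the control there. Parp14, Ifi44, Gbp7, Ifit3 and Trim30a, the other members with many kidney UMIs, had 60 min ratios between 1.88 and 2.32.

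In the tumor Ifi27l2a, a small interferon-induced protein of mitochondria, had the most UMIs, at 243, 193 and 274 CPM. Isg15 stood at 191, 204 and 249 CPM. Irf7, the factor that amplifies type I interferon production, stood at 112, 129.9 and 89.9 CPM. None of the 3 differed from the control by a fold of 2. At 15 min the largest ratios were those of Ifit2 (2.09), Ifit3b (1.98), Cmpk2 (1.88), Ifit1 (1.79) and Iigp1 (1.76), and the smallest were those of Oasl1 (0.699), Ifi27l2a (0.794) and Bst2 (0.886). At 60 min the largest were those of Ifit2 (1.97), Rsad2 (1.86) and Gbp7 (1.71), and the smallest were those of Oas3 (0.720), Ifit3b (0.786) and Apol9a (0.801). Rtp4, Ifi35, Zbp1, Parp14, Irf9 and Xaf1, the others with many tumor UMIs, had ratios between 0.892 and 1.52 over both intervals. Ifit3 and Ifit3b, Apol9a and its close copy, and the Gbp genes resemble each other, so their counts are uncertain where a read could not be placed, and how many reads this touches was not measured here.

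A library sum mixes the level in each cell type with the share of each type, and in such sums fewer cells of a type and less RNA per cell cannot be told apart. Cells were therefore assigned to classes by marker genes that include no member. Proximal tubule cells were 51.4, 85.7 and 29.5% of kidney cells, endothelial cells 9.80, 4.59 and 24.7% and macrophages 14.3, 1.59 and 15.2%. With the control's class levels and the class makeup of the 15 min library the members would sum to 373 CPM, close to the 381 measured. With the control's makeup and the class levels of the 15 min library the sum would be 1417. The same exchanges for the 60 min library gave 2449 and 1892. With either makeup on both sides, the 15 min sum thus lay just above that of the control.

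**Figure D1:**
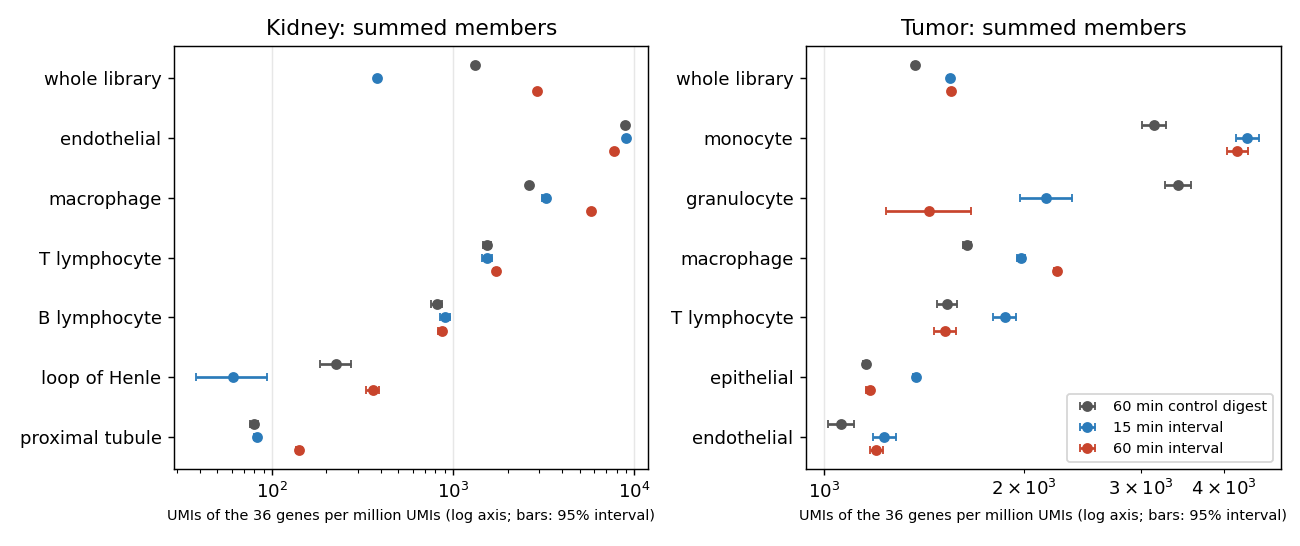
Summed UMIs of the 36 members per 1000000 UMIs, on a log axis, for whole libraries and cell classes of the kidney (left) and the tumor (right). Points are single libraries coloured by condition, and bars are 95% counting intervals. Kidney endothelial cells lie highest in all 3 kidney libraries, and the 60 min point of the kidney macrophages lies at 5797, to the right of the other 2.

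Endothelial cells, which line the vessels, had the highest member level of the kidney classes with at least 50 cells in each library. They stood at 8933 CPM in the control (8814–9054), 8975 at 15 min (8825–9127) and 7732 in the 60 min cells (7677–7787). The first pair overlap within counting error, and the 60 min level was lower. Endothelial cells, gated on 9 markers with Pecam1 and Cdh5 among them, supplied 48.2, 58.2 and 49.9% of the member UMIs of their libraries.

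Rsad2 was their leading member, at 2444, 3095 and 2477 CPM. They held 91.9, 96.6 and 75.2% of all Rsad2 UMIs of the kidney libraries. Bst2 stood at 1148, 1433 and 1318 CPM and Cmpk2, the nucleotide kinase encoded next to Rsad2, at 156, 149 and 156. None of these was lower at 60 min than in the control.

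Of 34 members with enough endothelial UMIs, 0 were 2-fold higher at 60 min (3.78% of all genes) and 3 were 2-fold lower (0.906%). The latter were Ifit1 at 269, 159 and 129 CPM, Iigp1 at 635, 389 and 294 CPM and Irgm1 at 141, 65.1 and 66.4 CPM. Iigp1 and Irgm1 are GTPases that act on vacuoles of intracellular pathogens. At 15 min Isg15, at 675, 318 and 372 CPM, and Irgm1 were 2-fold lower (5.19%), and 0 members were 2-fold higher (5.24%). The median member ratio was 0.984 at 15 min and 0.818 at 60 min, beside 1.09 and 1.01 over all genes.

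In kidney macrophages some members were many times higher at 60 min and others stood near the control. The sum was 2644 CPM in the control (2603–2687), 3246 at 15 min (3118–3378) and 5797 in the 60 min cells (5748–5845). At 60 min 10 of 35 members were 2-fold higher (4.23% of all genes) and 0 were 2-fold lower (0.729%). The 15 min library held only 133 macrophages. There Oas3 and Ifi44 were 2-fold higher (9.35%), and Rsad2, Cmpk2 and Iigp1 were 2-fold lower (6.21%).

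Ifit1 stood at 20.7, 17.4 and 491 CPM in the macrophages, a 60 min ratio of 23.7 (19.7–28.6). Ifit2 stood at 37.2, 53.6 and 675 CPM, a ratio of 18.2 (15.9–20.9). Oasl1 stood at 14.5, 9.38 and 238 CPM, a ratio of 16.4 (13.2–20.6). For each of them the 60 min library lay far above both others, which overlapped or nearly did.

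Rsad2 stood at 57.9, 28.1 and 673 CPM, a ratio of 11.6. Isg15 stood at 100.4, 111 and 853 CPM, a ratio of 8.49 (7.80–9.25). Ifih1 stood at 34.6, 25.5 and 245 CPM, a ratio of 7.10 (6.14–8.24). The others past the fold were Ifit3b (3.84), Ifit3 (2.75), Parp14 (2.42) and Cmpk2 (2.17), so that all 4 Ifit genes were among them.

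The members that encode transcription factors of the interferon pathway stood nearer to the control. Irf7 had 57.9, 91.1 and 66.3 CPM, Irf9 57.2, 71.0 and 61.4 and Stat2 33.9, 46.9 and 44.9. Bst2 had 414, 435 and 427 CPM. The 6 GTPases had 60 min ratios between 0.974 and 1.26. Ifi27l2a, the leading member of control macrophages, had 889.8, 1159 and 625 CPM. The median member ratio at 60 min was 1.32, beside 1.03 over all genes.

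**Figure D2:**
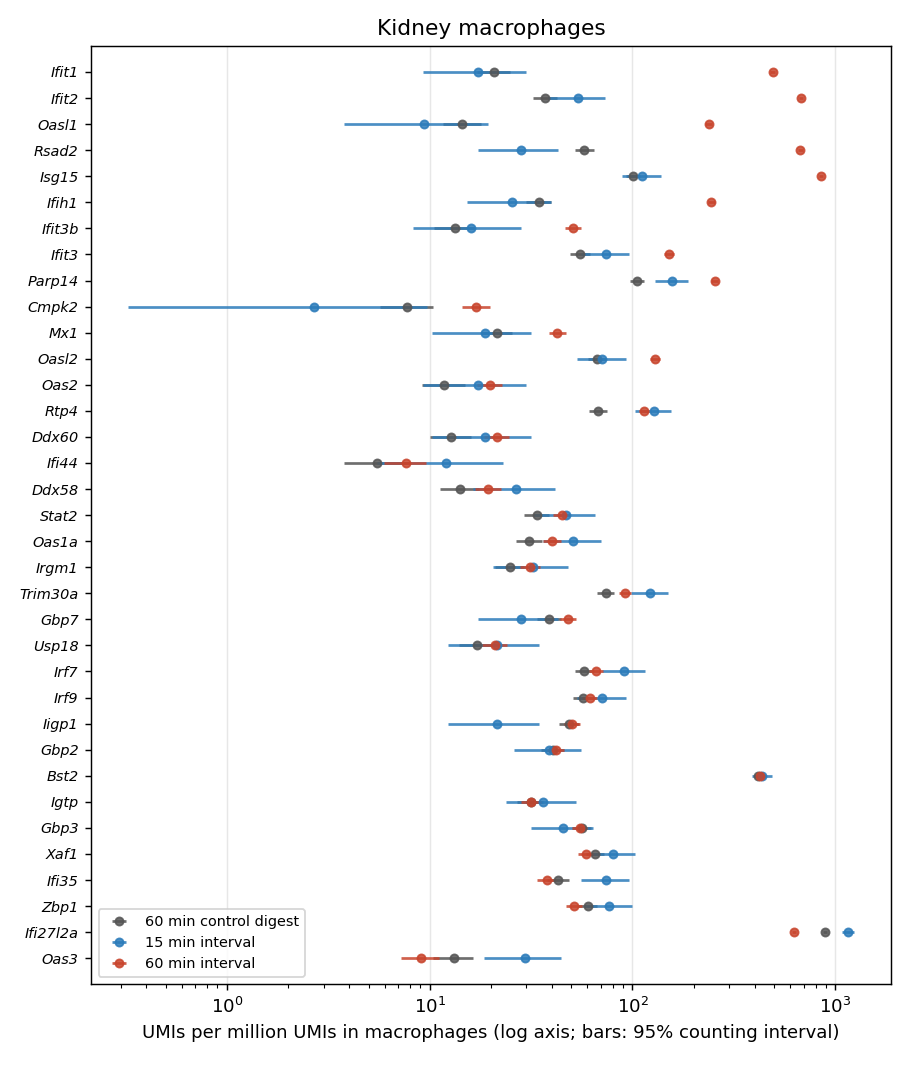
UMIs per 1000000 UMIs of kidney macrophages, on a log axis, for the 35 members with at least 30 UMIs in that class, ordered by the ratio of the 60 min interval to the control. Bars are 95% counting intervals. From Ifit1 down to Ifih1 the 60 min points lie far to the right of the other 2 libraries, while for Bst2 the 3 points nearly coincide.

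Of the 10 genes past the fold in macrophages, 9 had a promoter entry, and 5 of these (55.6%) held the response element core, namely Ifit1, Ifit3, Ifit3b, Isg15 and Rsad2. Of the other 19 members with an entry 12 did (63.2%). The 4 Ifit genes are neighbours on chromosome 19, within chr19:34550694-34650009 of GRCm38, and Rsad2 and Cmpk2 are neighbours on opposite strands of chromosome 12.

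The 60 min macrophages also held more UMIs of endothelial markers. The 9 markers summed to 17.5, 16.1 and 162 CPM in macrophages, which was 0.125, 0.0959 and 1.14% of their level in endothelial cells, and none was at 0. Among macrophages with no UMI of these markers, 752, 123 and 1148 cells, Rsad2 stood at 62.6, 27.7 and 618 CPM. Ifit1 stood at 22.6, 19.0 and 513 CPM in the same cells. There 9 members were 2-fold higher at 60 min, in place of 10. The share of all genes past the fold was not counted in these cells, so this count has no background beside it.

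**Figure D3:**
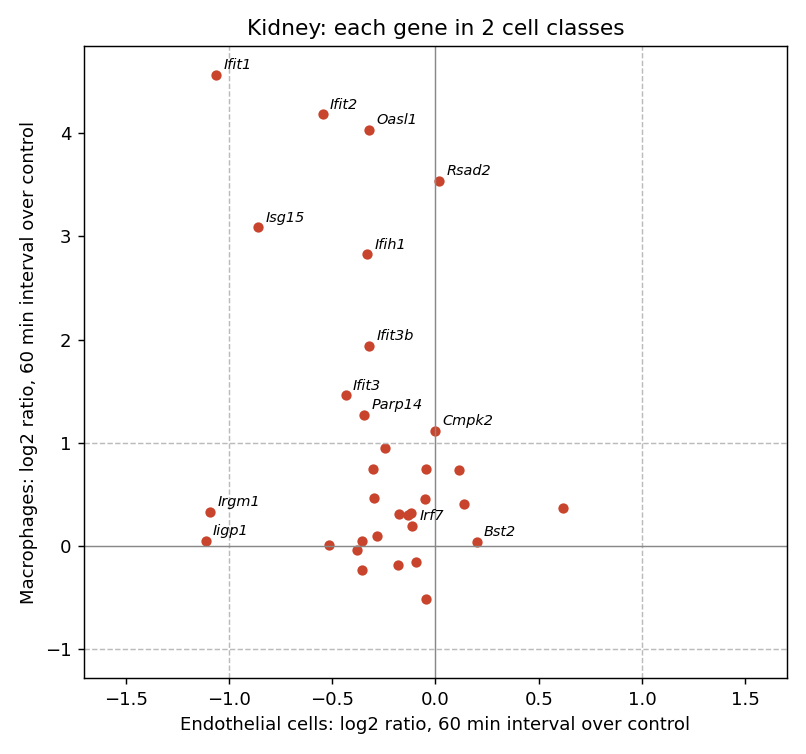
Log2 ratio of the 60 min interval to the control for 33 members in kidney endothelial cells (x axis) and kidney macrophages (y axis), with dashed lines at a 2-fold difference. Ifit1, Ifit2, Oasl1, Rsad2 and Isg15 lie high on the y axis, and of these all but Rsad2 lie left of 0 on the x axis.

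The ligand Ifnb1, which is not a member, was found mostly in macrophages in the control and 60 min libraries. At 15 min its tumor UMIs were few, with 5 (31.25%) in 5 macrophages and 11 (68.75%) in 2 cells of no assigned class. In kidney macrophages it stood at 16.2, 2.68 and 707 CPM, and 91.3% of the Ifnb1 UMIs of the 60 min library were in them. A UMI of it was found in 9 of 842 control macrophages (1.07%), in 1 of 133 at 15 min and in 525 of 1507 at 60 min (34.8%, 32.4–37.3). In the control 81 of its 94 macrophage UMIs were in 1 cell, whereas at 60 min the 10 cells with the most held 10.0% of them.

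Other kidney cells give the background of this share. At 60 min 0.921% of proximal tubule cells and 1.02% of endothelial cells held an Ifnb1 UMI, at median depths of 5951 and 3814 UMIs beside 6160 in macrophages. The shares were higher in cells of no assigned class, at 7.61% (75 of 986), and in dendritic cells, at 7.84% (8 of 102, 3.45–14.9). The macrophage share was above all of these. Ifna2 had 39 UMIs, Ifna16 had 10 and Ifna5 had 1 in the 60 min kidney library, and the other interferon-alpha genes on the pathway list had none.

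The 60 min kidney macrophages with an Ifnb1 UMI had 8892 member CPM and those without one had 3761. Ifit1 stood at 1071 and 109 CPM, Rsad2 at 1353 and 226, and Isg15 at 1483 and 438. Bst2 stood at 399 and 445 CPM, and Irf7 at 65.1 and 67.1. Ifit1, Rsad2 and Isg15, which were past the fold at 60 min, were thus higher in cells with an Ifnb1 UMI and Bst2 and Irf7 were not, although cells without one still had more Ifit1 and Rsad2 than control macrophages. Cells with an Ifnb1 UMI were deeper, at a median of 6973 UMIs beside 5652.

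**Figure D4:**
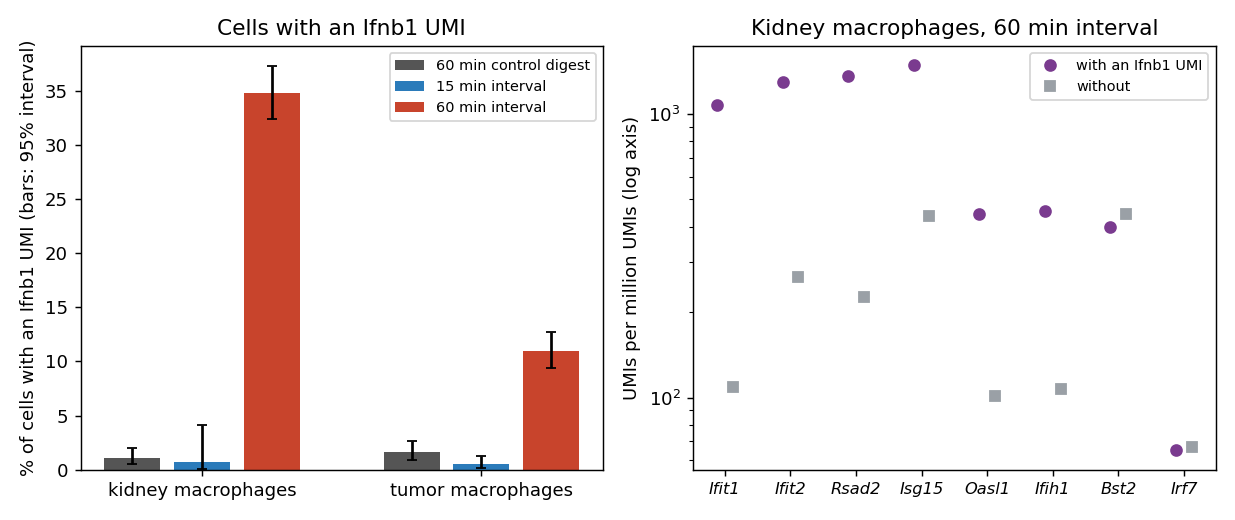
Left, percentage of macrophages with at least 1 Ifnb1 UMI in each library, with 95% binomial intervals. Right, UMIs per 1000000 UMIs (log axis) of 8 members in 60 min kidney macrophages with and without an Ifnb1 UMI, where Ifit1 differs most and Bst2 and Irf7 hardly differ.

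Other pathway genes were read in the same cells. Cxcl10, a T cell chemokine induced by interferon and by NF-kB, stood at 197, 56.3 and 2333 CPM in kidney macrophages, a 60 min ratio of 11.8. In kidney endothelial cells it stood at 428, 70.4 and 62.0 CPM, a ratio of 0.145. The receptor chains Ifnar1, at 71.9, 75.0 and 67.6 CPM, and Ifnar2, at 191, 197 and 163, differed little between the macrophages of the libraries. The kinases Jak1, at 108, 115 and 119 CPM, and Tyk2, at 15.2, 20.1 and 17.0, did not reach a fold of 2 either. Of 74 pathway genes outside the list with enough UMIs, 5 were 2-fold higher in 60 min macrophages and 0 were 2-fold lower, beside 4.23% and 0.729% of all genes.

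The sums of whole kidney libraries again mix level and class makeup, and the part of makeup in the values of this paragraph was not tested. In them the receptor chains were lowest at 15 min. Ifnar1 stood at 31.9, 10.1 and 46.1 CPM, Ifnar2 at 69.6, 25.7 and 104 and Ifngr1 at 124, 38.4 and 174. Ifngr2 stood at 40.8, 14.6 and 50.7 CPM, Il10rb at 69.4, 32.3 and 117 and Ifnlr1 at 0.505, 0.179 and 0.516. Of the kinases, Jak1 stood at 94.5, 67.0 and 130.1 CPM, Jak2 at 13.6, 5.18 and 18.8, Tyk2 at 8.62, 3.94 and 12.1, Tbk1 at 22.9, 13.1 and 26.7 and Ikbke at 1.43, 0.879 and 2.03. The adaptors stood at 12.4, 8.97 and 12.0 (Mavs), 11.4, 2.28 and 11.9 (Tmem173, which encodes STING), 8.62, 4.39 and 8.71 (Ticam1) and 16.0, 5.52 and 18.5 (Myd88). Ifng, the type II interferon, stood at 14.1, 1.86 and 24.6 CPM. Over these libraries 62 of 78 pathway genes were 2-fold lower at 15 min (30.7% of all genes), and 10 of 79 were 2-fold higher at 60 min (9.91%). In the tumor libraries 2 of 77 were higher (3.67%) and 2 lower (4%) at 15 min, and 7 were higher at 60 min (8.94%), with Ifnar1 at 54.9, 43.5 and 50.9 CPM.

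Proximal tubule cells, which reabsorb solutes, had the lowest member level of the kidney classes shown in the control and at 60 min. They stood at 79.9 CPM in the control (75.9–84.0), 82.3 at 15 min (80.0–84.7) and 142 in the 60 min cells (136–147). At 60 min 14 of 27 members were 2-fold higher (9.19% of all genes) and 0 were 2-fold lower (0.454%). Rsad2 stood at 0.896, 0.892 and 9.09 CPM, while Irgm1, the leading member, stood at 14.0, 13.5 and 16.1. In the same cells endothelial markers summed to 5.90, 5.51 and 35.5 CPM and macrophage markers to 16.8, 6.90 and 34.2 CPM, and their part in the result was not tested. At 15 min Ifit1, Ifit2, Iigp1, Gbp2, Gbp3 and Xaf1 were 2-fold higher (0.884%) and Isg15, Usp18, Ifi27l2a and Trim30a were 2-fold lower (3.95%). Gbp2, a guanylate-binding protein, stood at 1.63, 4.55 and 3.19 CPM.

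Kidney lymphocytes differed little in their sums, at 1539, 1547 and 1734 CPM in T lymphocytes and 812, 904 and 867 CPM in B lymphocytes. In T lymphocytes at 60 min Ifit1 and Usp18 of 29 members tested were 2-fold higher (2.87% of all genes) and 0 were 2-fold lower (1.63%). At 15 min 4 were higher (4.58%) and 5 lower (7.97%), with Ifit1 at 7.26, 13.9 and 28.8 CPM over the libraries. In these T lymphocytes the 7 macrophage markers summed to 11.4, 4.65 and 94.2 CPM and the 9 endothelial markers to 128, 102 and 192 CPM, none of them was at 0 at 60 min, and their part in the result was not tested. In B lymphocytes 1 of 17 was higher (5.26%) and 3 lower (5.18%) at 15 min. At 60 min 0 were higher (2.37%) and 0 lower (2.14%).

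Tumor macrophages stood at 1639.8 CPM in the control (1616–1664), 1979 at 15 min (1949.9–2009) and 2243 in the 60 min cells (2220.1–2266). At 60 min 7 of 35 members were 2-fold higher (4.98% of all genes), namely Ifih1, Oas2, Ifit1, Ifit2, Isg15, Rsad2 and Iigp1, and 0 were 2-fold lower (2.47%). Ifit1 stood at 16.8, 29.2 and 62.6 CPM, a ratio of 3.72 (3.17–4.37). Isg15 stood at 177, 141 and 371 CPM and Ifih1 at 22.8, 21.3 and 64.4. Of the 7, 5 were also among the 10 of the kidney macrophages, all but Oas2 and Iigp1.

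At 15 min 12 members were 2-fold higher in tumor macrophages (10.9%), namely Stat2, Ddx60, Oas2, Ifit2, Ifit3b, Usp18, Mx1, Rsad2, Cmpk2, Iigp1, Igtp and Gbp7. Oasl1, at 45.4, 18.6 and 66.7 CPM, was the 1 that was 2-fold lower (5.24%). Igtp, a GTPase of host defence, stood at 6.91, 22.8 and 13.8 CPM, and Mx1, which encodes a dynamin-like antiviral GTPase, at 8.84, 22.1 and 9.62. All of those higher at 15 min except Rsad2, at 52.7, 108 and 148 CPM, had a higher level at 15 min than at 60 min.

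Ifnb1 stood at 4.60, 0.570 and 48.7 CPM in tumor macrophages. A UMI of it was found in 15 of 930 control cells (1.61%), 5 of 911 at 15 min (0.549%) and 156 of 1417 at 60 min (11.0%, 9.43–12.8). At 60 min the share was 2.70% of monocytes (2 of 74) and 3.01% of cells of no assigned class (11 of 365). In tumor epithelial cells it was 0.121%, at a median depth of 9193 UMIs beside 11924 in macrophages. Rsad2 stood at 569.9 CPM in 60 min macrophages with an Ifnb1 UMI and 91.2 in those without, and Ifit1 at 301 and 30.5. Bst2 (173 and 211) and Irf7 (50.8 and 71.9) were not higher in the cells with one.

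Tumor epithelial cells, in which the MMTV promoter is active, stood at 1154 CPM in the control (1142–1166), 1373 at 15 min (1361–1384) and 1170.3 in the 60 min cells (1157–1184). At 15 min 0 of 36 members were 2-fold higher (2.13%) and 0 were 2-fold lower (3.62%), with a median ratio of 1.32 beside 1.14 over all genes. At 60 min 0 were 2-fold higher (2.21%), and Ifit3 alone was 2-fold lower (2.06%), at 10.9 CPM in the control and 4.55 at 60 min. Isg15 led with 177, 209.7 and 203 CPM, and Irf7 stood at 132, 150.0 and 131.

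**Figure D5:**
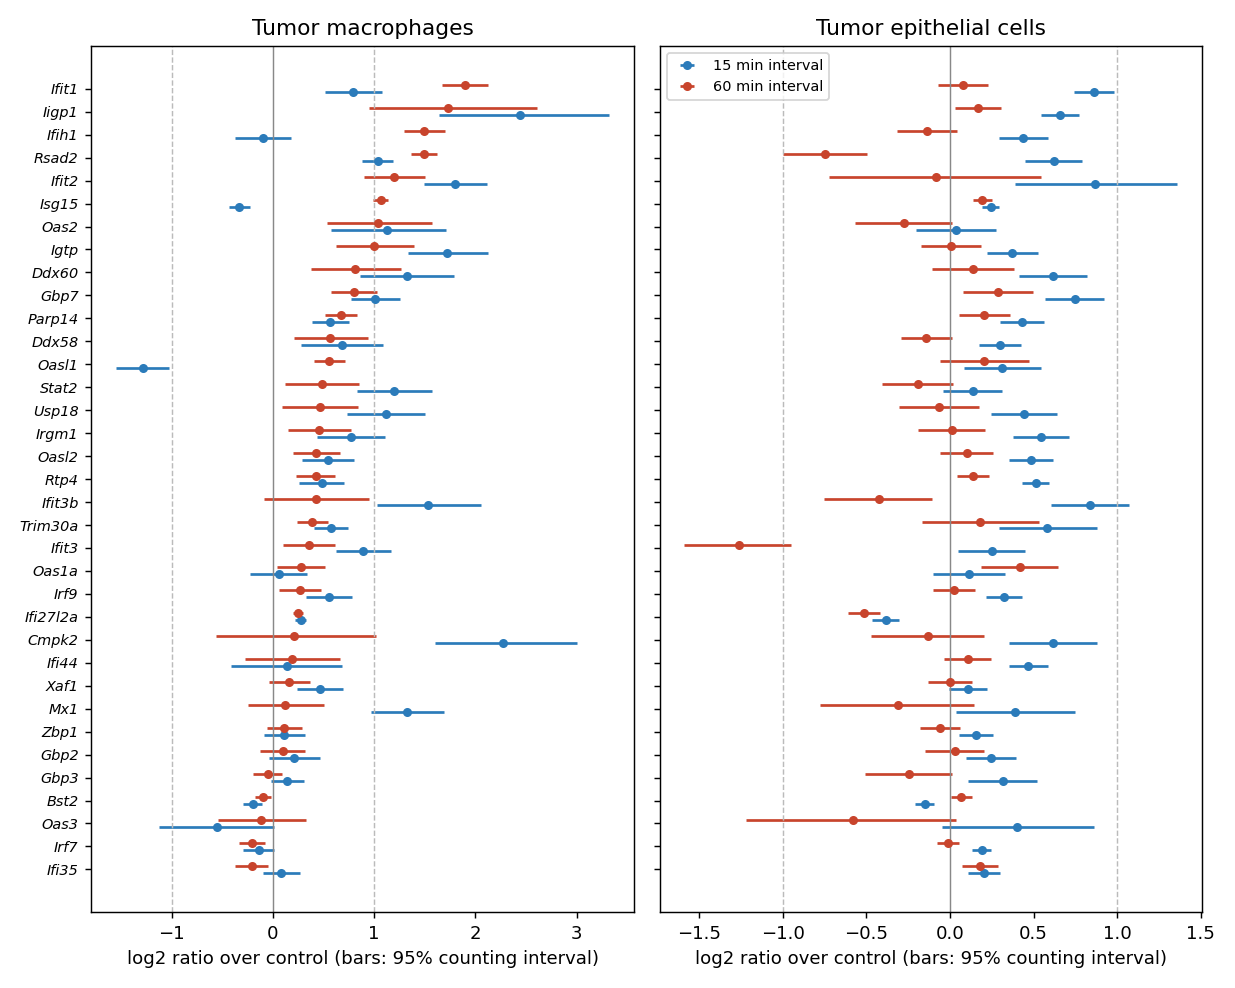
Log2 ratio to the control of 35 members in tumor macrophages (left) and tumor epithelial cells (right) for the 15 min and the 60 min interval, with 95% counting intervals and dashed lines at a 2-fold difference. The panels have different x ranges. In macrophages Ifit1, Ifih1, Rsad2 and Isg15 lie further right at 60 min, while Iigp1, Cmpk2 and Igtp lie further right at 15 min.

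Members were not spread evenly over the cells of the tumor epithelium. A UMI of any Ifit gene was found in 10.2, 15.5 and 13.3% of epithelial cells. In these the other 32 members summed to 4171, 4047 and 3426 CPM, and in the rest to 655, 711 and 731. The cells with an Ifit UMI were deeper, in the control at a median of 10730 UMIs beside 7879. Between the same 2 sets of kidney endothelial cells, of which 57.0, 57.9 and 52.3% held an Ifit UMI, the ratio was 1.81, 1.44 and 1.52, beside 6.36, 5.69 and 4.68 in the tumor epithelium. It was 4.40, 4.74 and 2.76 in tumor macrophages, 3.15, 4.41 and 4.96 in tumor monocytes and 11.5, 29.0 and 5.99 in proximal tubule cells, of which 0.926, 1.06 and 4.40% held an Ifit UMI, so the tumor epithelium did not stand apart from every class.

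Monocytes had the highest member level of the tumor classes shown at 15 and 60 min. The 66, 56 and 74 cells stood at 3141, 4345 and 4194 CPM. At 15 min 13 of 30 members were 2-fold higher (7.97%) and 0 were 2-fold lower (6.96%). Ifit3 stood at 13.7, 92.8 and 72.5 CPM and Rsad2 at 136, 384 and 129.7. At 60 min Stat2, Ifit3 and Usp18 were 2-fold higher (4.15%), and Cmpk2 and Irgm1 were 2-fold lower (5.16%). Macrophage markers in these cells were at 28.3, 13.1 and 26.9% of their level in macrophages, and their part in the result was not tested. In the 10, 15 and 14 monocytes with an Ifit UMI the other 32 members summed to 7407, 9620 and 11766 CPM. In the remaining monocytes these 32 summed to 2355, 2180 and 2370 CPM. Because the split was made on members, it cannot show which cells the higher sums rested on.

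Tumor T lymphocytes stood at 1531, 1871 and 1521 CPM. At 15 min 10 of 29 members were 2-fold higher (6.78%) and 0 were 2-fold lower (4.02%), with Ifit3 at 4.09, 31.4 and 11.4 CPM. At 60 min 6 were higher (5.91%) and Irgm1 was lower (4.18%), with Gbp7 at 40.9, 85.9 and 94.2 CPM. In the 27, 26 and 13 cells with an Ifit UMI the other 32 members summed to 3048, 4555 and 6396 CPM. In the remaining T lymphocytes these 32 summed to 1306, 1197 and 1222 CPM.

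Tumor endothelial cells stood at 1059, 1232 and 1197 CPM. Rsad2, the leading gene of kidney endothelium, stood at 14.1, 13.4 and 13.2 CPM there, although tissue, sex, age and strain differ between these samples and cannot be told apart. At 15 min Oasl1, Ifit1 and Ifit3 were 2-fold higher (3.7%) and 0 members 2-fold lower (3.59%). At 60 min 0 were higher (2.09%) and Ddx60 was lower (3.02%).

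Tumor granulocytes, at 3412, 2160.1 and 1438 CPM in 250, 98 and 59 cells, had lower sums in both platform libraries. At 15 min 6 of 17 members were 2-fold lower (10.7%) and 0 were 2-fold higher (8.64%). At 60 min 9 were lower (13.3%), among them Rsad2, Ifit1 and Irf7, and 0 were higher (3.19%). Macrophage markers in these cells, of which 1 of 7 was at 0, were at 67.0, 30.5 and 64.5% of their level in macrophages, and their part in the result was not tested. In the control, the 10% of granulocytes with the most member UMIs held 67.7% of them. The 15 control granulocytes with an Ifit UMI had 18314.5 CPM of the other 32 members. In granulocytes without an Ifit UMI these 32 summed to 1750, 1672 and 1438 CPM. Because this split was made on members, it cannot show which cells the lower sums rested on.

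Cells were also thinned to 1000 UMIs each, so that depth would not set how many members a cell shows. At least 3 members were then detected in 13.9, 5.32 and 32.8% of kidney cells, beside 30.9, 10.8 and 51.3% without thinning. The thinned share was 80.6, 84.5 and 80.1% in kidney endothelial cells, 28.4, 42.3 and 56.0% in kidney macrophages and 0.278, 0.295 and 0.729% in proximal tubule cells. In the tumor it was 11.3, 13.9 and 13.6% over all cells, beside 61.1, 70.8 and 70.8% without thinning, and 12.6, 14.9 and 20.6% in macrophages. Shallower cells, 331, 141 and 513 in the kidney libraries and 172, 58 and 121 in the tumor libraries, were left out.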

How the data were processed

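The authors made 10x Genomics v3 libraries from sorted viable cells and processed them with Cell Ranger 3.1.0 against mm10, equalising depth between libraries. The deposited values were UMI counts per gene and cell. Cells were kept with at least 200 and at most 3000 (kidney) or 4000 (tumor) genes, and at most 50% or 25% mitochondrial UMIs. Classes were gated by UMIs of markers from 16 kidney and 14 tumor lists that include no member, requiring at least 3 markers (2 for short lists) and a lead of 1.25 over the next class. No caller was run for doublets. UMIs were summed by library and class. Genes with at least 30 UMIs over 3 libraries were compared, and a fold of 2 was counted. Intervals were exact Poisson or binomial (95%). Python 3.11.15, numpy 2.4.6, scipy 1.17.1, pandas 2.3.3 and leidenalg 0.10.2 were used, and the counting was tested on simulated data.

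Members, pathway genes (97 of 100 listed were found) and markers were chosen with earlier results of these data known. Named were the 12 members with the most UMIs in a tissue, the 5 largest and 5 smallest ratios, all pathway ligands by count, receptors and transducers, and the 3 genes with the most UMIs of each other role. Other genes were chosen after their values were seen, and 1 gene that the rule names is not reported here. Alternatives changed the cell limits, gate, denominator, fold, makeup and thinning.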

Additional observations from a re-analysis of the deposited data

Results flagged for a closer look

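Between the tissues the summed members of whole libraries went opposite ways at 15 min, at 0.289 times the control in the kidney and 1.13 times in the tumor. These sums mix level and class makeup. With the control's class levels and the 15 min makeup they would be 373 CPM in the kidney (381 measured) and 1293 in the tumor (1546 measured). With the control's makeup and the 15 min class levels they would be 1417 and 1621, both above the controls at 1319 and 1369. Endothelial cells also went opposite ways at 60 min, at 0.865 times the control in the kidney and 1.13 times in the tumor. Neither difference between tissues was tested, since each condition had 1 library, and tissue, sex, age and strain cannot be told apart.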

How the results depend on the processing

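No paired analysis was possible because each condition had 1 library and no result came from a test between replicates. The kidney 15 min ratio to the control of the summed members (0.289) was 0.372 over all deposited cells, 0.364 without the upper limit on genes, 0.324 without mitochondrial UMIs, 0.419 as a mean of cells' shares, 0.267 without Rsad2 and 0.276 as a median of ratios. It reversed to 1.05 with the class makeup held fixed, here at each class's mean UMI share over the 3 libraries of the tissue. The 60 min ratio (2.22) was 2.10, 2.12, 2.26, 2.17, 2.04, 1.97 and 1.27 under the same changes in the same order. The tumor 15 min ratio (1.13) was 1.15 over all deposited cells, 1.06 as a mean of shares, 1.20 without Ifi27l2a, 1.29 as a median and 1.20 with fixed makeup. The tumor 60 min ratio (1.13) was 1.12 over all deposited cells, 1.11 without the upper limit, 1.06 as a mean of shares, 1.07 as a median and 1.101 with fixed makeup.

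Within kidney classes at 60 min, the ratio of proximal tubule cells (1.78) was 1.504 in Leiden clusters. That of endothelial cells (0.865) was 0.842 with only the lower limit on genes, 0.889 without mitochondrial UMIs and 0.810 without Rsad2. That of macrophages (2.19) was 2.23 without mitochondrial UMIs, 1.98 without Rsad2 and 2.11 without macrophages that held endothelial UMIs. The loop of Henle cells, few in number, had 1.59 when gated and 0.949 in Leiden clusters, and the cause was not tested. Tumor epithelial cells had 1.19 at 15 min, 1.17 without mitochondrial UMIs and 1.22 without Ifi27l2a, and at 60 min 1.01, 0.968 with only the lower limit and 1.04 without Ifi27l2a. Tumor macrophages had 1.21 at 15 min, 1.247 in Leiden clusters, 1.16 with a stricter gate and 1.17 with only the lower limit, and at 60 min 1.37, 1.44 in Leiden clusters and 1.45 without Ifi27l2a.

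At a fold of 1.5 in place of 2, with the share of all genes past 1.5 in parentheses, the members counted as higher went from 16 to 29 (24.9%) in the 60 min kidney library, from 0 to 1 (8.56%) in its endothelial cells, from 1 to 13 (15.3%) and from 0 to 5 (15.0%) in the 15 and 60 min tumor libraries, from 0 to 8 (10.5%) in 15 min epithelial cells and from 7 to 11 (12.5%) in 60 min tumor macrophages. Those counted as lower at 60 min went from 0 to 1 (2.0%) in proximal tubule cells and from 1 to 2 (6.50%) in tumor epithelial cells. The share of cells with at least 3 members was, for cells as deposited, cells thinned to 2000 UMIs and a minimum of 5 members, 30.9, 22.5 and 6.80% in the kidney control, 10.8, 6.99 and 2.84% at 15 min and 51.3, 43.4 and 17.4% at 60 min, and 61.1, 23.8 and 3.79%, 70.8, 27.6 and 5.01% and 70.8, 28.7 and 3.93% in the tumor. Leaving out shared barcodes or endothelial-positive macrophages, and keeping only the lower gene limit, were chosen after seeing the data. Each alternative was counted apart, so 1 result could count several times. For the results given most weight, 67 alternatives stayed within counting error or 1.5 times the count, 65 moved and 1 reversed. For the other results 105 stayed, 31 moved and 1 reversed. With 1 library per condition, variation between animals, digests and runs was not measured.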

Other observations

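Of pathway genes outside the list, 9 of 70 were 2-fold lower and 2 were 2-fold higher in 15 min kidney endothelial cells, beside 5.19% and 5.24% of all genes. At 60 min 5 of 71 were lower and 4 higher, beside 0.906% and 3.78%. Irf1, a transcription factor induced by interferon-gamma, stood at 479.8, 195 and 225 CPM in the control, 15 min and 60 min endothelial cells, and Socs3, a feedback inhibitor of cytokine receptors, at 741, 80.9 and 351. In kidney macrophages Irf1 stood at 191, 127 and 209 CPM and Socs3 at 269.7, 190.2 and 227. Cxcl9, an interferon-gamma-induced chemokine singled out after its values were seen, stood at 2.09, 147 and 13.1 CPM in the endothelial cells.

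H2-D1, B2m and Tap1, genes of antigen presentation, did not differ by a fold of 2 between the kidney libraries in these cells. The class I heavy chain gene H2-D1 stood at 2906, 3064 and 2929 CPM in macrophages and 3463, 3948 and 3809 in endothelial cells, and B2m, the class I light chain gene, at 2174, 2302 and 2149 and 2339.7, 2674 and 2609.8. The peptide transporter gene Tap1 stood at 129, 186 and 143 CPM in macrophages.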
